A study of Acipenser sturio with 24 samples.

Results

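The transcripts described here are 124 assembled components that were near 0 in sturgeon embryos until NF stage 12, were present at stage 12.5, and were still present in late tailbud embryos. NF stages are those of the Nieuwkoop-Faber table for the frog Xenopus. The 124 were chosen by fixed limits on the deposited values, out of 275906 components (0.0449%). A member stood below 0.5 at each of stages 0 to 11, below 1 at stage 12, at 3 or more at both stages 12.5 and 13.5, and below 300 everywhere. Its mean over stages 32 to 36 was at least 0.25 of its mean over stages 12.5 to 13.5, here called the onset mean. These limits fix the onset and the late presence, so both are given below as description without a test.

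RNA of whole embryos was sequenced at 24 stages, from stage 0 to stage 36, with 1 library a stage. The strain label names the Bester hybrid, a cross of beluga (Huso huso) and sterlet (Acipenser ruthenus), while the organism label names Acipenser sturio. No library received a treatment, and all embryos were raised in dilute MMR saline. How many embryos or clutches went into a library is not given in the labels. A component is a group of sequences joined in assembly, and its deposited value is a normalized abundance. The files pair no component with a gene name, so no gene, pathway or cell type can be given for any member, no sequence is shown, and tissue markers could not be checked.

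A fish or frog embryo first lives on RNA that the mother stored in the egg. Its own genome is then switched on, and the stored RNA is broken down over the following stages. In Xenopus, stage 12.5 lies at the end of gastrulation, when the germ layers have moved into place, and the neural plate forms soon after. Neurulation then folds that plate into the neural tube, and the tailbud stages lengthen the trunk and tail and begin to build organs. RNA made by the embryo's own genome is called zygotic, in contrast to the mother's stored RNA. In whole embryos, more cells that hold a transcript and more transcript per cell cannot be told apart.

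The libraries differed in depth and fell into 2 sets for which the labels hold no entry. Column totals lay between 342953 (stage 12.5) and 679612 (stage 36). With stage 36 set to 1, the number of reads behind a unit of value was lowest at stage 29 (0.627) and highest at stage 4 (3.39). It was 1.13 at stage 12 against 3.17 at stage 12.5. Set B held 7 libraries, those of stages 0, 13, 16, 19, 24, 29 and 36, and set A held the other 17. The division was read from the residuals of 2632 abundant components about a smooth curve of stage, none of them a member, and what it stands for was not tested.

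Before the onset the members were mostly listed at 0. Of 868 values at stages 0 to 11, 626 (72.1%) were 0, and 26 of the 124 members were at 0 in all 7 of these libraries. The number of members at 0 was 106 (stage 0), 60 (stage 4), and between 87 and 97 from stage 8 to stage 11. Stage 4, with the fewest members at 0, was also the library with the most reads per unit of value, and how far depth sets these numbers was not tested. At stage 12, 69 members were above 0, with a median over all 124 of 0.18. Of the 26 silent members, 7 were above 0 at stage 12 and 19 were not.

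Between stages 12 and 12.5 the members' summed value went from 34.5 to 634. This was 0.0087% of the whole library's value at stage 12 and 0.185% at stage 12.5. Among the 69 members above 0 at stage 12, the median ratio of the stage 12.5 to the stage 12 value was 10.7, with a range from 4.19 to 63.3. The stage 12.5 values were low and narrow, with a median of 4.36 and a highest value of 20.4. Between stages 12.5 and 13.5, 89 members were higher at the later stage and 35 lower. The difference was 2-fold or more upward in 17 and downward in 3.

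Many components lay close to the limits that define the members. The lowest stage 12.5 value inside was 3 and the highest just outside was 2.94, and the corresponding stage 13.5 values were 3.01 and 2.98. At stage 12 the highest value inside was 0.94 and the lowest outside 1.01. For stages 0 to 11 the corresponding values were 0.49 and 0.50. For the ratio of the late mean to the onset mean they were 0.253 and 0.249. With the onset limit at 2 the rule took 273 components, and with 5 it took 34.

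**Figure D1:**
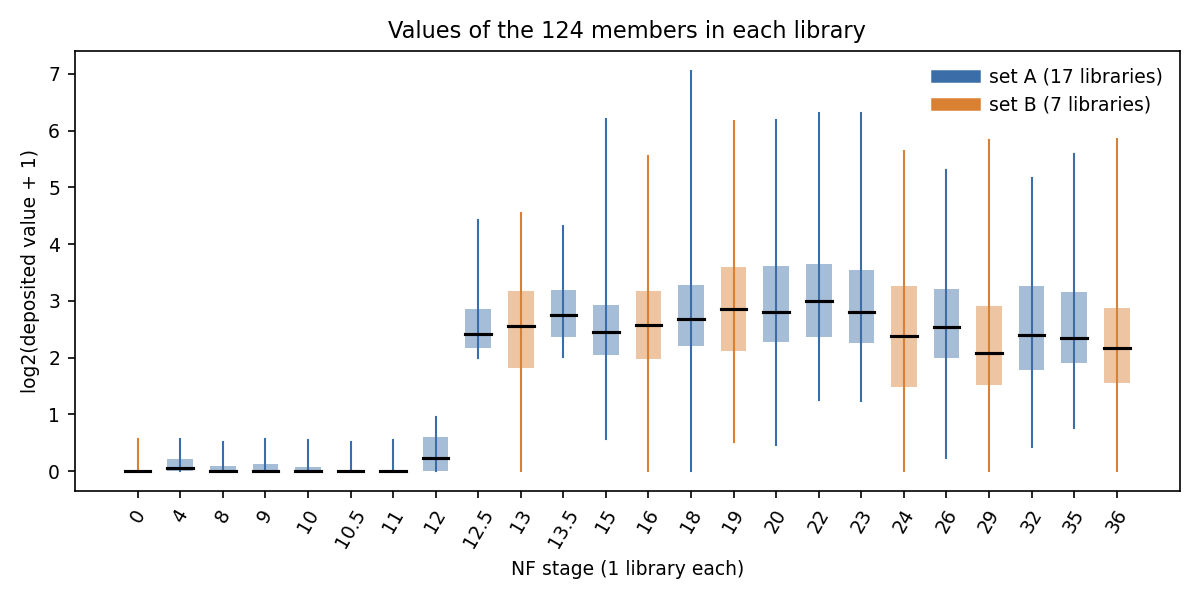
Deposited values of the 124 members in each of 24 libraries, as log2(value + 1) against NF stage. Boxes run from the lower to the upper quartile, black bars are medians, thin lines reach the lowest and highest member, and colour gives the library set; medians are at or near 0 until stage 11 and between 3.23 and 7 from stage 12.5 on.

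After the onset the median member stayed low while a few members were abundant. In set A the median deposited value was 5.71 (stage 13.5), 4.46 (stage 15), 5.45 (stage 18), 5.96 (stage 20), 7 (stage 22), 4.85 (stage 26) and 4.10 (stage 35). The highest value of any member was 18.9 (stage 13.5), 72.8 (stage 15) and 132 (stage 18). The 10 highest members held 16.9% of the members' sum at stage 12.5 and 30.5% at stage 22. The members' share of the whole library lay between 0.167% and 0.209% at stages 12.5 to 13.5, reached 0.227% at stage 19, and was 0.106% at stage 36.

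The neurula libraries of stages 15 to 20 were outside the limits except for the ceiling of 300. In them 73 members had a mean above their onset mean, and 89 lay within 2-fold of it. Another 19 were at least 2-fold above the onset mean and 16 at or below 0.5 of it. The highest value of a member fell at stages 15 to 20 for 56 members, at stages 12.5 to 13.5 for 37, at stages 22 to 29 for 22 and at stages 32 to 36 for 9. These peaks ranged from 3.64 to 132 with a median of 10.3. A value of 20 was reached in some library by 19 members and a value of 50 by 4.

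Most members stayed present in the libraries that followed, which lie between the stages where the limits require presence. At stages 15 to 29, 91 of 124 members stayed at 1 or more in all 10 libraries, and 20 stayed at 5 or more. Values below 1 made up 2.02% of 744 values in the 6 set A libraries and 10.1% of 496 values in the 4 set B libraries. The stage 29 library, with the least depth per unit of value, had 7 members at 0. Stages 22 and 23 held all 124 members at 1 or more.

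The members spread apart by how much remained at stages 32 to 36. The ratio of the late to the onset mean had a median of 0.724 and reached 7.12. It was at least 2 for 18 members, from 1 to 2 for 25, from 0.5 to 1 for 53 and under 0.5 for 28. At stage 12.5 these 4 classes were alike, with medians of 3.82, 4.87, 4.31 and 4.45 in that order. The later classes are a sorting of the same values, so their late order is given by their definition.

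The order of the classes was already visible in libraries that did not define it. At stage 15 the class medians were 7.30, 5.55, 4.05 and 3.63, and at stage 20 they were 17.3, 7.71, 5.07 and 3.37. All 18 members of the highest class had a neurula mean above their onset mean, as did 23 of 25, 27 of 53 and 5 of 28 in the other 3 classes. The classes and these counts share the onset mean, and neighbouring stages resemble each other, so the counts are no separate evidence. At stage 29 the class from 0.5 to 1 (2.55) stood below the class under 0.5 (2.71). In the highest class the set B libraries of stages 24 and 29 stood at 10.1 and 8.53, below the set A libraries of stages 23, 26 and 32 at 16.6, 12.7 and 15.3.

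**Figure D2:**
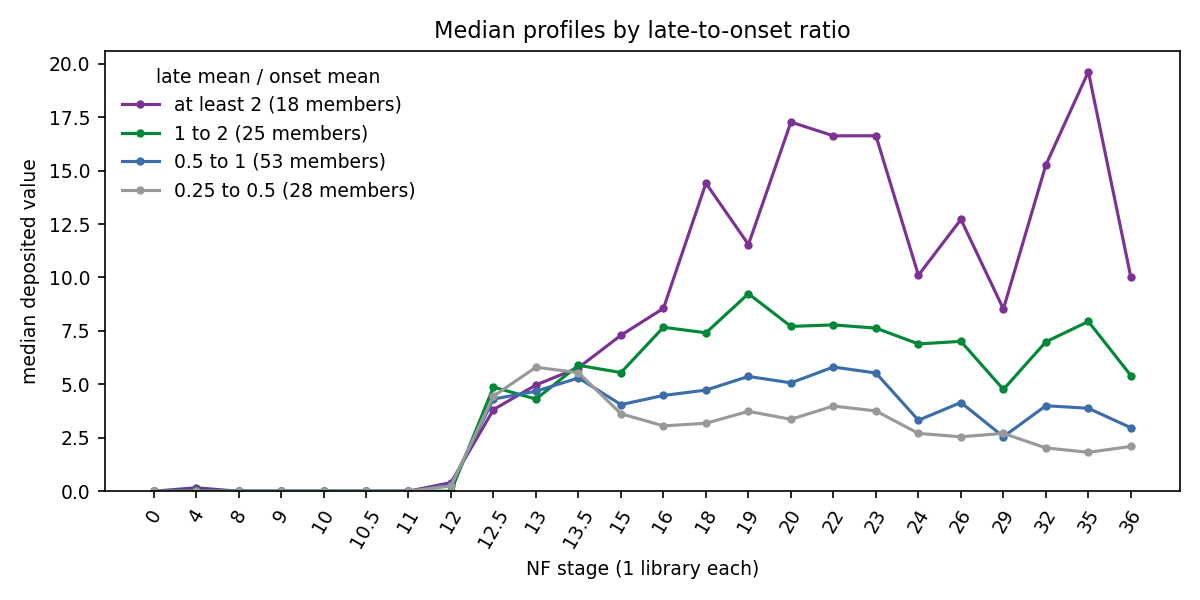
Median deposited value of the members against NF stage, for 4 classes by the ratio of the mean of stages 32 to 36 to the mean of stages 12.5 to 13.5. The 4 lines start between 3.82 and 4.87 at stage 12.5 and lie between 3.37 and 17.3 at stage 20.

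Stages 15 to 29 entered the limits only through the ceiling, so they alone were tested. The comparison asked whether members fell or rose from neurula (5 libraries) to tailbud (5 libraries, stages 22 to 29). The limits read the stages on both sides, so the direction of members beside all components is not free of that choice. Most members had a lower mean log2 value in the tailbud libraries, while few passed the test. Of 124 members, all of which were tested, 1 rose and 5 fell (limma, Benjamini-Hochberg adjusted over 31047 components, threshold 0.05). Of all components tested, 5.59% rose and 2.8% fell, against 0.806% and 4.03% of the members. The fall among members is 5 components and lies near the background. An unadjusted p under 0.05 was reached by 34 members (27.4%) and by 26.9% of all components tested. Each group holds 5 different stages, so the spread includes development within the group.

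Over the members, 101 of 124 (81.5%) had a negative log2 change, beside 44.7% of all components tested. The median was -0.44 on the log2(scaled value + 1) scale for members and 0.08 for all components, and the median SE of a member was 0.31. A change of 2-fold or more was reached upward by 1 member and downward by 11 (8.87%), beside 9.31% upward and 4.44% downward of all components. The shift of the median depends on how libraries are scaled. It was -0.27 for members and 0.21 for all components with column totals, -0.10 and 0.35 with values as deposited, and -0.54 and -0.04 with the trimmed mean. On values as deposited 75 of 124 members (60.5%) had a negative change, beside 26.7% of all components tested.

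**Figure D3:**
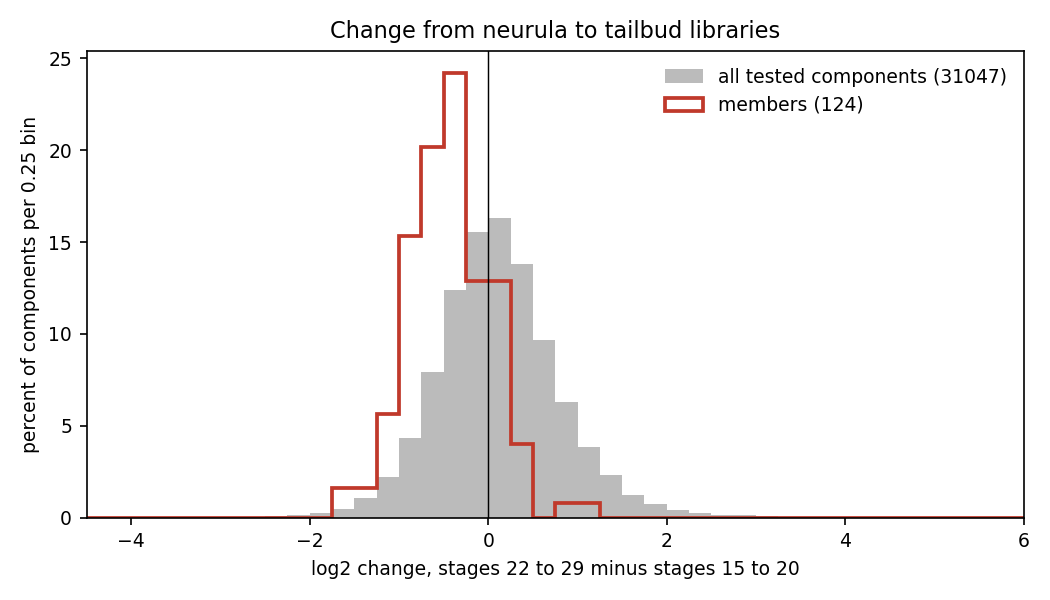
Distribution of the log2 change from stages 15 to 20 to stages 22 to 29 for 31047 tested components (grey) and the 124 members (red), as the percent of components in each 0.25-wide bin. Members run from -1.64 to 1.18, with 101 of 124 below 0.

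A straight line over the order of the same 10 libraries gave more calls than the comparison of 2 groups. With it 34 members fell and 1 rose, while 9.63% of all components tested fell and 15.6% rose (limma, adjusted p threshold 0.05). The 34 make up 27.4% of the members, and their slopes ran from -0.37 to -0.11 log2 units per library, with a median of -0.18. Their median deposited value was 5.76 (stage 15), 4.88 (stage 20), 3.73 (stage 26) and 1.99 (stage 29). On values as deposited 9 members fell (7.26%) and 4 rose (3.23%), beside 3.65% and 27.3% of all components tested. With the trimmed mean 51 fell (41.1%) and 1 rose (0.806%), beside 14.9% and 10.5%. As with the 2 groups, the contrast with all components is not free of the choice of members.

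The group comparison called no member within either library set. In set A alone, with 3 neurula and 3 tailbud libraries, limma called 0 members and 0 of all components. There 15 members (12.1%) had an unadjusted p under 0.05, beside 15.5% of all components. In set B alone, with 2 libraries on each side, it called 0 members and 61 components, and an unadjusted p under 0.05 was held by 29 members (23.4%) beside 16.4% of all components. The direction was negative for 88 members in set A and 110 in set B, and for 85 in both, with medians of -0.22 and -0.71. Of all components tested, 40.8% were negative in set A and 50% in set B, with medians of 0.13 and -0.0007. The share negative in both sets was not counted over all components. The line in stage order, fitted in set A alone, called 8 members lower (6.45%) and none higher, beside 3.81% and 7.32% of all components. With the set as a term in the fit, 13 members fell (10.5%) and 1 rose (0.806%), beside 4.15% and 7.35% of all components. Without the library of stage 15, 16, 18, 24, 26 or 29, in turn, no member was called. Of all components tested, 3.06%, 1.96%, 4.02%, 3.32%, 1.59% and 4.73% were called in these fits, in that order.

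The member that rose was comp271555_c0, which was lower at stages 15 to 20 than at stages 12.5 to 13.5 and at stages 22 to 29. It stood between 0 and 0.05 at stages 0 to 11, at 0.39 at stage 12, and at 7.41, 15.0 and 10.1 at stages 12.5, 13 and 13.5. It was at 1.77, 1.95, 2.31, 4.40 and 3.88 at stages 15, 16, 18, 19 and 20. The tailbud values were 5.28, 6.52, 12.0, 10.1 and 16.7 at stages 22, 23, 24, 26 and 29. In deposited values all 5 tailbud libraries thus lay above all 5 neurula libraries, a state reached by 2 members and by 8.22% of all components tested.

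Its mean deposited value was 2.86 ± 1.20 (SD, 5 libraries) in the neurula and 10.1 ± 4.55 (SD, 5 libraries) in the tailbud group. On the log2(scaled value + 1) scale the tailbud mean was 1.18 higher (SE 0.31, adjusted p = 0.0326, limma). This member then stood at 9.92, 13.4 and 21.7 at stages 32, 35 and 36. The change was 0.85 (adjusted p = 0.271) in set A alone and 1.67 (adjusted p = 0.146) in set B alone. Over 26 alternatives, lines in stage order among them, the direction held in each, with the call kept in 16. For the group comparison the adjusted p ran from 0.0156 to 0.271 (limma). Lines in stage order, which test a slope, gave 0.000109 to 0.053 (limma). In the group comparison this member was no longer called without the library of stage 15, 16, 18, 24, 26 or 29. A neurula mean under 0.5 of both the onset and the late mean was held by 4 members in all.

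The member that fell and whose groups did not overlap in deposited values was comp246901_c1. It was at 0 at stages 0 to 12 except for 0.19 at stage 10.5, and at 7.03, 2.17 and 3.58 at stages 12.5, 13 and 13.5. It held a level of 4.18, 3.03, 3.79, 3.40 and 4.00 through stages 15 to 20. At stages 22, 23, 24, 26 and 29 it was at 2.88, 2.91, 1.77, 0.93 and 0. Each deposited tailbud value was below each neurula value, which held for this member alone among the 124 and for 1.54% of all components tested. The log2 change uses scaled values, on which overlap was not counted, and other members may separate there.

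Its mean deposited value went from 3.68 ± 0.465 to 1.70 ± 1.26 (SD, 5 libraries each). On the log2(scaled value + 1) scale the change was -1.26 (SE 0.36, adjusted p = 0.0463, limma). The lowest value, at stage 29, comes from the library of least depth per unit of value. Without that library the change was -0.95 (adjusted p = 0.0789). It was also lost as a call without stage 15, 16, 18, 19, 24 or 26. Over 25 alternatives, lines in stage order among them, 10 kept the call. For the group comparison the adjusted p ran from 0.0276 to 0.265 (limma). The group call was lost under each other scaling, at 0.0608 with column totals, 0.0902 as deposited and 0.0504 with the trimmed mean. Lines in stage order, which test a slope, gave 0.000583 to 0.0226 (limma). The values at stages 32, 35 and 36 were 2.56, 2.85 and 1.37.

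The most abundant member, comp139717_c0, was chosen here after its values were seen. It was at 0 at stage 12 and at 4.52, 4.83 and 11.2 at stages 12.5, 13 and 13.5. It then stood at 72.8, 45.9, 132, 71.2 and 68.5 at stages 15 to 20, and at 78.5 and 78.5 at stages 22 and 23. Stages 24, 26 and 29 gave 19.8, 29.6 and 6.67, and stages 32 to 36 gave 17.6, 12.6 and 2.86. The neurula and tailbud ranges overlap, and the log2 change of -1.64 (SE 0.55) did not pass the test (limma adjusted p = 0.0766). The line in stage order over the same 10 libraries called it lower, with a slope of -0.37 log2 units per library (SE 0.07, adjusted p = 0.00244, limma), the steepest fall among the members. Its group difference was -1.05 (adjusted p = 0.317) in set A alone and -2.54 (adjusted p = 0.096) in set B alone. It held 12.8% of the members' sum at stage 18. A neurula mean over 2 times both the onset and the late mean was held by 6 members.

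Some members differed between the library sets. The set B mean was under 0.5 of the set A mean at stages 15 to 29 for 18 of 124 members, and for 10.3% of all components tested. It was under 0.25 for 3 members (2.42%), beside 3.13% of all components, and over 2 times for 1 member, beside 9.25%. The ratio had a median of 0.950 over members and 1.07 over all components. The set B libraries in it are those of stages 16, 19, 24 and 29. The latest stage is thus in set B alone, and stage is not balanced between the sets. The limits read stages 12.5 and 13.5, both in set A, and take stage 13, in set B, only as part of a mean. At stage 13, 58 members were below both neighbours, 46 were above both, and 12 were under 1.

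The extreme case was comp110619_c0, also chosen after its values were seen. In set A it was at 7.71, 11.9, 14.6, 12.8, 13.9, 13.5, 11.4, 6.84, 13.4 and 7.94 at stages 12.5, 13.5, 15, 18, 20, 22, 23, 26, 32 and 35. In set B it was at 0.18, 0.94, 0.42, 0.25, 1.34 and 0.43 at stages 13, 16, 19, 24, 29 and 36. The 2 ranges do not overlap. At stages 15 to 29, which the limits used only through the ceiling, the set B range lay below the set A range for 12 members (9.68%), beside 2.78% of all components tested. It lay above for 1 member (0.806%), beside 1.23%. The limits require presence in the set A libraries of stages 12.5 and 13.5 and in no single set B library, so this contrast is not free of the choice of members. What separates the sets was not tested.

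**Figure D4:**
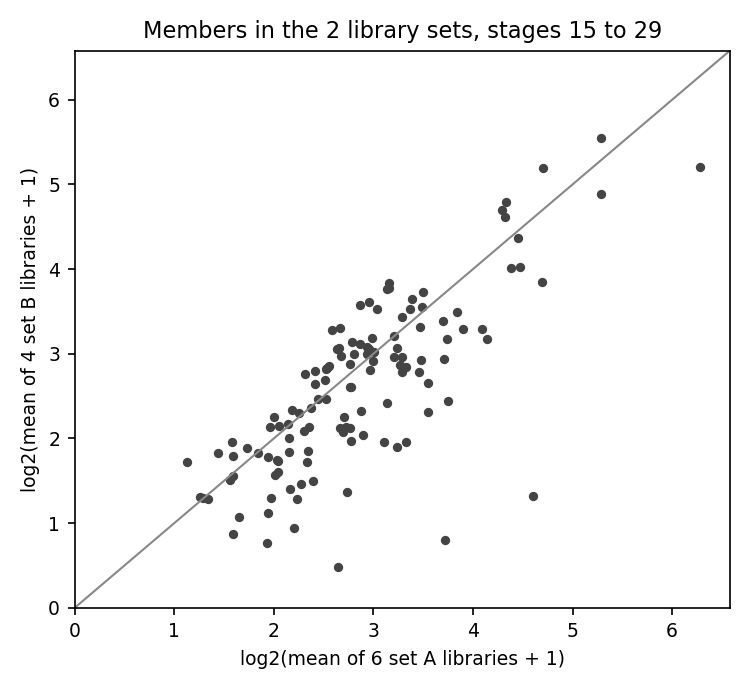
Each point is a member, placed by log2(mean deposited value + 1) over the 6 set A libraries (horizontal) and the 4 set B libraries (vertical) of stages 15 to 29. The line marks equal means; 18 members have a scaled set B mean under 0.5 of the set A mean.

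**Figure D5:**
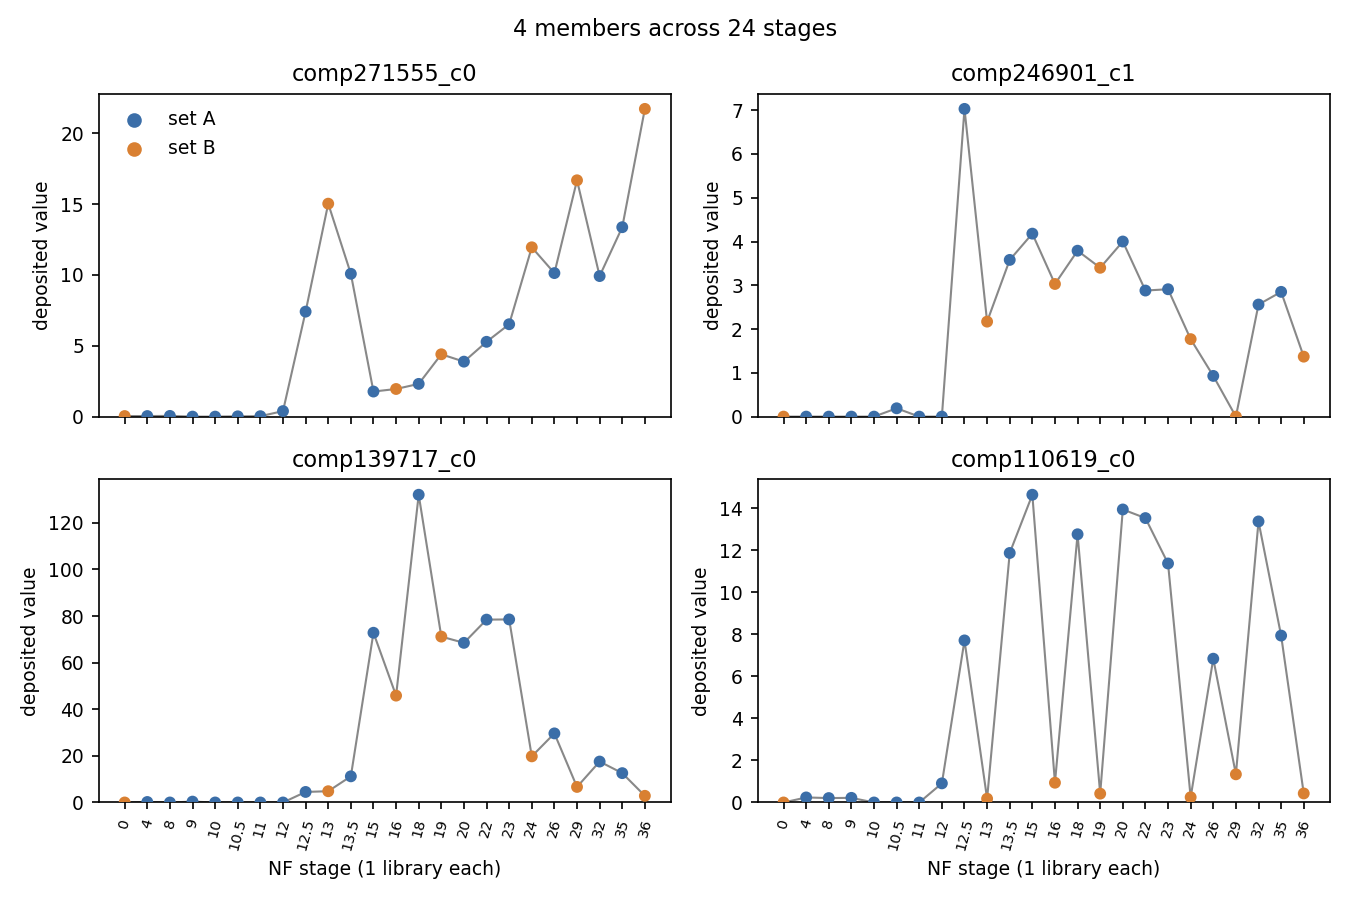
Deposited values against NF stage for the 4 members named, with colour giving the library set. The upper left member has a low at stages 15 to 18 after its onset. The upper right one is lower at stages 22 to 29 than at stages 15 to 20. The lower left one peaks at 132 at stage 18, and the lower right one is low in each set B library.

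The identifiers carry one feature that the limits did not use. In identifiers of this form a shared number commonly marks one cluster of an assembly, whose components can share reads, but the assembler is not named in the labels. Of the 124 members, 72 (58.1%) had another component with the same number, near the 58.6% among all components tested. A same-number component already present in early embryos, with a mean of 1 or more over stages 0 to 11, was found for 26 members (21%), beside 21.9% of all components tested. Among the 14056 tested components that were below 0.5 at each of stages 0 to 11, it was found for 13.7%. The 124 members carried 122 different numbers, and 4 members shared a number with another member.

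The components most like the members were those that missed a single limit. The same onset with a late mean under 0.25 of the onset mean was held by 65 components, so that 65.6% of 189 components with this onset lasted. Their median value was 5.04 at stage 12.5 and 5.85 at stage 13.5, close to the members' 4.36 and 5.71. At stages 15, 18 and 22 it was 3.08, 2.10 and 1.70, where the members stood at 4.46, 5.45 and 7. Of these 65, 52 passed the filter on low values. Of the 52, 14 (26.9%) fell from neurula to tailbud and none was called higher, beside 2.8% and 5.59% of all components tested. The late limit of this list favours a fall, so the count is no separate evidence.

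A further 47 components met the other limits but stood at 1 or more at stage 12. Their median was 1.75 (stage 12), 7.43 (stage 12.5), 9.26 (stage 15) and 7.35 (stage 22). The members' medians at these stages were 0.18, 4.36, 4.46 and 7. The order at stage 12 is fixed by the limit of 1. All 47 were tested, and 5 (10.6%) fell and 1 (2.13%) rose from neurula to tailbud, beside 2.8% and 5.59% of all components tested. These 47 met the same limits on the onset and late means, so this contrast is not free of their choice. Their median log2 change was -0.72, beside -0.44 for the members. Whether these lists differ was not tested, since each was cut from the same values.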

How the data were processed

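The authors deposited one table of signal values, normalized abundances of assembled components. The labels do not state whether they are FPKM or TPM. Per the submitters' processing notes, RSEM, Bowtie, Trimmomatic and CASAVA 1.8.2 were used, without stated roles. Each of the 24 columns matched a library's label. Values are not counts, so read depth is unknown. Its ratio between libraries was read from modal ratios of values between 0.15 and 3, and 268 of 276 library pairs lay within 0.1 (log2) of the fitted values.

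Membership used values as deposited. For the test, libraries were scaled by the median of ratios over 15471 components above 0 everywhere. Components with a mean scaled value of at least 1 over the 10 libraries of stages 15 to 29 entered the fit, on log2(scaled value + 1) with trended, robust variances, in R 4.3.3 with limma 3.58.1. This scale understates the fold of low components. With 1 library a stage, p-values measure scatter between stages. In simulated data of 31047 components, 100 were changed by 2 and 100 by 1 (log2, in either direction). The comparison recovered 62% of the former and 11% of the latter, and called 4 of 30847 unchanged components. In the real data 2604 components were called. The strictness of the adjusted threshold therefore differs, and these rates need not carry over.

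The named members are the 2 highest and 2 lowest log2 changes past the threshold without overlapping groups, of which 1 of each existed. Overlap was read on deposited values and the log2 change on scaled values. The members and lists were chosen with earlier results of these data known. Alternatives in scaling, filter, pseudocount, design, library set and libraries left out were tried.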

Additional observations from a re-analysis of the deposited data

Results flagged for a closer look

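In 15 combinations of a measure and a group of stages, 4 values stood apart from the rest of their group. Chance lists about 1 in 20, a rate that does not apply to stages 0 to 11, where the limits held members below 0.5. At stage 4 the members' median value was 0.04, while it was 0 in the other 6 libraries of stages 0 to 11. In the same library 60 members were at 0, fewer than in the others, and a median above 0 follows from that count. At stage 29, 7 members were at 0, more than in the other tailbud libraries of stages 22 to 26. The value of comp246901_c1 at stage 10.5 was 0.19, while it was 0 in the other 6 libraries of stages 0 to 11. Where the other 6 are at 0, as here and for the stage 4 median, any value above 0 would be listed. Stage 4 had the most and stage 29 the fewest reads per unit of value, and their part in these values was not tested.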

How the results depend on the processing

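Set B alone, set as a term, and the line in stage order under other scalings or in set A were added after seeing the data. The comparison of tailbud with neurula called 2604 components (8.39%) and 6 members (4.84%). The number of components was 306 without a filter, 1270 at a mean of at least 5, 1642 with a pseudocount of 0.1, 0 in set A and 61 in set B. A line in stage order gave 7828, and 7379, 9131 and 6929 with column totals, values as deposited and the trimmed mean. Members called were 1 (0.806%) with column totals, 1 (0.806%) with values as deposited, 0 without a filter and 3 (2.42%) with a pseudocount of 0.1. They were 0 in set A, 0 in set B and 14 (11.3%) with set as a term. Over all components the shares were 9.97%, 11.8%, 0.121%, 5.29%, 0%, 0.196% and 11.5% in that order. The line gave 35 members (28.2%), and 27 (21.8%), 13 (10.5%) and 52 (41.9%) under the same 3 scalings. Over all components the line called 25.2%, and 27.4%, 31% and 25.4% under these scalings. Leaving out each library gave 494 to 3535 components (1.59% to 11.4%) and 0 to 9 members (0% to 7.26%). Of the calls over all components, 66.6% were higher as reported, 79.9% with column totals and 89.1% with values as deposited. This share was 49.6% at a mean of at least 5, 61.8% with the line, and 41.3% with the line and the trimmed mean. Of the members called, 16.7% were higher as reported and 2.86% with the line. With column totals and with values as deposited, the only member called was higher. The members' median log2 change, or median slope where a line was fitted, was negative in all 26 alternatives. That direction is not free of the choice of members. Read on values scaled by the median of ratios, the rule took 200 components, 101 of them members. Read on values scaled to column totals, it took 155, of which 87 were members. On values as deposited the rule took 273 with an onset limit of 2 and 34 with 5. The filters change what is tested and the sets how many libraries enter, and otherwise the cause was not tested. Unknown read depth limits statements on values near 0. No paired analysis was possible because no stage was sequenced more than once.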
